A study of Arabidopsis thaliana with 24 samples.

Results

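The genes described here are GH3.1, GH3.3, WES1 (also called GH3.5), IAA29, LBD16 and LBD29 of Arabidopsis thaliana, 6 genes of the response to the plant hormone auxin. They were chosen by name, with earlier results of these data known. Counts among the 6 set beside shares of all probe sets are therefore descriptions and no test of the group. Each was measured by 1 probe set that the array's gene table gives to that gene alone, as it did for 13513 of the 22810 probe sets, in which 13286 genes with a locus code were found. The 6 are GH3.1 (AT2G14960, 266611_at), GH3.3 (AT2G23170, 245076_at), WES1 (AT4G27260, 253908_at), IAA29 (AT4G32280, 253423_at), LBD16 (AT2G42430, 265856_at) and LBD29 (AT3G58190, 251565_at). All 6 passed the filter on dim probe sets, but GH3.1, LBD16 and LBD29 did so through root arrays alone. For GH3.1 these were root arrays of 3 h and later, when it was high, and for LBD29 root arrays of 12 h or earlier.

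Roots and shoots of Col-0, the standard laboratory accession, were profiled on oligonucleotide arrays after salt was added to their Murashige and Skoog medium. Sodium chloride went to 150 mM on day 16, when the light had been on for 3 h of a 16 h day, and every plant profiled here had received it. Each tissue was sampled after 0.5, 1, 3, 6, 12 and 24 h with 2 arrays per tissue and time, 24 arrays in 12 groups. Untreated plants were not analysed here, so the reference is 0.5 h in the same tissue. Up to 12 h, and between 6 and 24 h, time in salt cannot be told apart from time of day. Plants of 24 h were sampled at nearly the same time of day as those of 0.5 h. Over that day, time in salt cannot be told apart from age.

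Auxin acts by bringing the Aux/IAA repressors to TIR1/AFB receptors, which mark them for breakdown and so release the auxin response factors (ARFs). The GH3 enzymes described here join auxin to amino acids, which takes free hormone out of use, and many GH3 and Aux/IAA genes are themselves switched on by auxin, which makes them feedback parts of the pathway. In roots, LBD16 and LBD29 are transcription factors that act downstream of ARF7 and ARF19 in the formation of lateral roots.

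Signals are on the linear scale of the deposited values, whose median over all arrays was 41.7. No detection calls were used, so a signal far below that median is reported as a value and not as expression. The median of an array lay between 41.9 and 47.2 in roots and between 37.2 and 42.0 in shoots. The 2 arrays of a group correlated across the 15199 probe sets tested, which are not independent replicates, with Pearson r of 0.961 to 0.984 in 11 groups. The 2 root arrays of 12 h stood apart at 0.857, with 2902 probe sets at least 2-fold apart, against 883 or fewer in the other groups. Of the shoot markers, 6 of 13 had a probe set. Their summed signal ran from 12469 to 23917 in shoots and from 193 to 803 in roots. Of the root markers, 2 of 7 were measured, with sums of 2855 to 4319 in roots and 209 to 1049 in shoots, of which EXPA7 contributed at most 92.2 on any array. Whether paired arrays came from separate cultures is not stated in the labels. The p-values therefore describe only how far these samples scatter, possibly for technical reasons, and the number of arrays limits the precision.

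The comparison of the tissues asked where the 6 genes were read at all. Averaged over the 6 times, 5 of the 6 were higher in roots than in shoots by limma (adjusted p under 0.05 and at least 2-fold), against 22.4% of all probe sets called higher and 18.4% called lower. IAA29 was the exception. Differences are given as log2 ± SE after 2.205 was added to each signal, and this constant shrinks the differences of dim genes. At single times the same 5 genes were called higher in roots at each of the 6. Of these, GH3.1, LBD16 and LBD29 passed the filter through root arrays alone, so a higher signal in roots is in part what admitted them. The share of all probe sets called higher was 24.2% at 0.5 h, 23.5% at 1 h, 24.8% at 3 h, 23.5% at 6 h, 21.8% at 12 h and 22.0% at 24 h. The share called lower was 17.5%, 18.3%, 20.7%, 22.9%, 19.2% and 18.8% in the same order, and of the 6 genes IAA29 alone was called lower, at 0.5 and 1 h.

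GH3.3 had signals of 314 to 2930 over 12 root arrays, with a median of 1874, and of 9.63 to 82.7 over 12 shoot arrays, with a median of 44.3. Every root array was above every shoot array, and the difference was 5.22 ± 0.26 (limma, adjusted p = 3.65e-12). WES1 ran from 224 to 1306 in roots (median 367) and from 23.9 to 121 in shoots (median 81.9), again without overlap, with a difference of 2.84 ± 0.13. GH3.1 lay between 13.2 and 785 in roots (median 63.3) and between 0.784 and 6.36 in shoots (median 2.63). All 12 shoot arrays of GH3.1 were below the median of all values, so its level in shoots is known only as dim. In bulk tissue, fewer cells that read a gene and less RNA per cell cannot be told apart.

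LBD16 had root signals of 57.0 to 284 (median 99.3) and shoot signals of 11.0 to 28.4 (median 22.4), a difference of 2.34 ± 0.14. LBD29 had root signals of 13.5 to 219 (median 69.8), while its shoot signals were 0.776 to 5.69 (median 1.71). As for GH3.1, that is too dim for a sized difference, and the fitted value for LBD29 ran from 2.31 to 4.57 over its alternatives, 2.31 being that with the pseudocount of 16. Neither LBD gene overlapped between the tissues, and both were below the median of all values on all 12 shoot arrays. IAA29 overlapped, with 8.14 to 68.2 in roots (median 17.1) and 7.56 to 90.7 in shoots (median 36.9). Its difference over all times was -0.42 ± 0.19, under 2-fold.

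**Figure D1:**
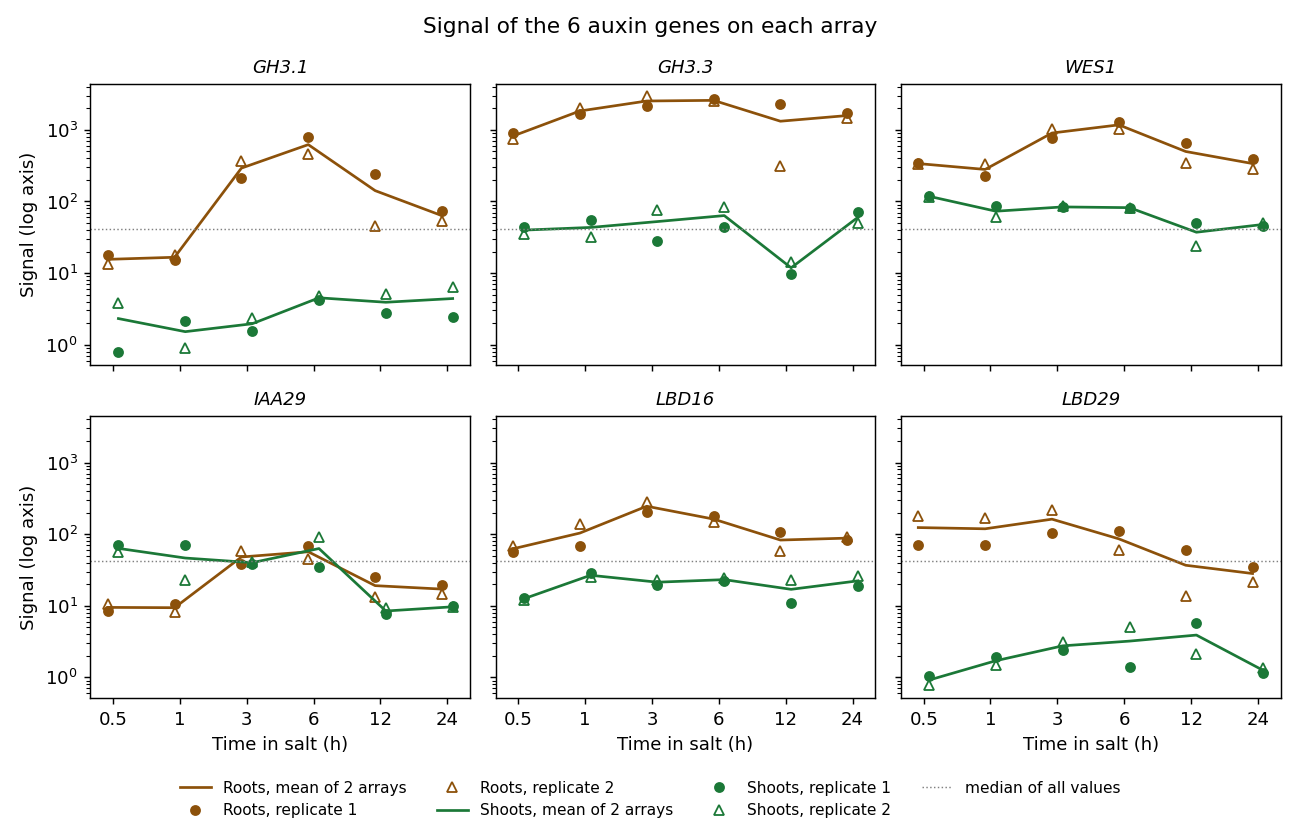
Signal of each gene on every array (log axis) by time in salt (h, evenly spaced), in roots (brown) and shoots (green); circles are replicate 1, triangles replicate 2, lines join the means of 2 arrays, and the dotted line is the median of all values, 41.7. In roots GH3.1, WES1, IAA29 and LBD16 peak at 3 or 6 h, LBD29 is lowest at 24 h, and in shoots IAA29 drops to below 10 at 12 and 24 h.

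The time course in roots asked which of these genes moved after salt and when. An F test over all 6 times passed for 5 of the 6, all but GH3.3 (limma, adjusted p = 0.0901), against 59.1% of all probe sets. At 1 h none of the 6 passed, with 0.375% of all probe sets called higher by limma and 0.0132% lower, and none of the 6 had an unadjusted p under 0.05. At 3 h, 4 of the 6 rose (GH3.1, WES1, IAA29 and LBD16), against 8.20% of all probe sets, and none fell, against 4.86%. At 6 h, 5 of the 6 rose, now with GH3.3, against 11.0% of all probe sets, and none fell, against 13.2%. The median difference over the 6 genes was 1.77 at 3 h and 1.72 at 6 h, where the median over all probe sets lay at -0.19 and -0.21.

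GH3.1, an auxin-conjugating enzyme, moved most. Its 2 root arrays read 17.9 and 13.2 at 0.5 h, then 15.1 and 18.1 after 1 h, 214 and 371 after 3 h, and 785 and 460 after 6 h. The first 2 times overlapped each other, and both later times lay above them without overlap. The difference was 4.01 ± 0.57 at 3 h (16.1-fold, adjusted p = 1.72e-04) and 5.10 ± 0.57 at 6 h (34.3-fold, adjusted p = 8.52e-06). These were the 51st and 49th highest differences among the 15199 probe sets. GH3.1 passed the filter only through root arrays of 3 h and later, so a rise from 0.5 h is in part what admitted it.

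GH3.1 then declined without going back to its start. The root arrays read 238 and 44.9 at 12 h and 73.6 and 53.1 at 24 h, all above those of 0.5 h. From 6 h to 24 h it fell by 3.22 on the log2 scale (SE 0.57, adjusted p = 8.85e-04). Over this step 3 of the 6 genes fell (GH3.1, WES1 and IAA29), against 5.52% of all probe sets, and none rose, against 6.63%. GH3.1 stayed higher at 24 h than at 0.5 h by 1.88 ± 0.57 (adjusted p = 0.0185), but leaving out 1 array could end that call. The adjusted p was 0.0535 and 0.103 without replicate 1 and 2 of 0.5 h, and 0.123 when replicate 1 of 24 h was left out.

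WES1, of the same family, followed with a smaller size. It read 345 and 332 at 0.5 h, then 224 and 336 after 1 h, 777 and 1029 after 3 h, and 1306 and 1042 after 6 h. Both arrays of 3 h were above the earlier 4, and both of 6 h were above those of 3 h. The difference from 0.5 h was 1.40 ± 0.31 at 3 h (adjusted p = 0.00358) and 1.78 ± 0.31 at 6 h (adjusted p = 2.84e-04). By 24 h the signals of 389 and 287 lay on either side of those of 0.5 h, with a difference of -0.02 ± 0.31 and a 95% interval of -0.68 to 0.65. From 6 h to 24 h WES1 fell by 1.80 on the log2 scale (SE 0.31, adjusted p = 7.87e-04).

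GH3.3, the third conjugating enzyme, was bright from the start and its test was the least firm. Its root arrays read 895 and 746 at 0.5 h, then 1643 and 2026 after 1 h, 2130 and 2930 after 3 h, and 2675 and 2490.2 after 6 h. The pairs of 1, 3 and 6 h each lay above the pair of 0.5 h. The differences were 1.16 ± 0.63 at 1 h (adjusted p = 0.680), 1.61 ± 0.63 at 3 h (adjusted p = 0.0561) and 1.66 ± 0.63 at 6 h (adjusted p = 0.0375). The fit gives each probe set 1 spread over all groups, and the 2 root arrays of GH3.3 at 12 h read 2327 and 314, a 7.40-fold gap. Without both arrays of 12 h the call at 3 h was made (adjusted p = 0.00248), while the call at 6 h was lost without replicate 1 or 2 of 0.5 h (0.0861 and 0.142) or replicate 1 or 2 of 6 h (0.123 and 0.101). With 1 h as the reference it was 0.50 (adjusted p = 0.544). At 24 h the signals of 1722 and 1449 were still above both of 0.5 h, with a difference of 0.95 ± 0.63 that did not pass (95% interval -0.38 to 2.28).

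IAA29, an Aux/IAA repressor, was dim in roots at first. It read 8.48 and 10.5 at 0.5 h, then 10.6 and 8.14 after 1 h, 38.4 and 57.5 after 3 h, and 68.2 and 45.2 after 6 h. Both arrays of 3 h and of 6 h were above all 4 earlier ones and overlapped each other. The rise was 2.08 ± 0.45 at 3 h (adjusted p = 0.00294) and 2.31 ± 0.45 at 6 h (adjusted p = 6.43e-04). At 24 h the signals were 19.6 and 14.5, lower than at 6 h by 1.60 ± 0.45 (adjusted p = 0.0165). Leaving out replicate 1 of 6 h ended that call (adjusted p = 0.128), as did leaving out replicate 2 of 24 h (0.109).

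Of the 2 lateral root regulators, LBD16 was called higher at 3 and 6 h and LBD29 lower at 12 and 24 h, and no test compared them. Both had their highest root mean at 3 h. LBD16 read 57.0 and 67.8 at 0.5 h, then 68.2 and 139 after 1 h, 206 and 284 after 3 h, and 177 and 147 after 6 h. It was highest at 3 h, where both arrays exceeded those of every other time, and it rose by 1.92 ± 0.33 at 3 h (adjusted p = 7.10e-04) and 1.35 ± 0.33 at 6 h (adjusted p = 0.00350). With 1 h as the reference the value at 6 h was 0.72 and did not pass (adjusted p = 0.0939). At 24 h LBD16 read 84.0 and 91.9, above both arrays of 0.5 h, with a difference of 0.48 ± 0.33 that did not pass.

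LBD29 read 69.4 and 177 at 0.5 h, then 70.3 and 167 after 1 h, 105 and 219 after 3 h, and 111 and 60.7 after 6 h. These 4 pairs overlapped, with gaps of 1.83-fold to 2.56-fold between replicates, replicate 2 being the higher at the first 3 times and the lower at 6 h. None of the differences at 1, 3 or 6 h passed, and at 3 h the difference was 0.44 ± 0.62 (95% interval -0.88 to 1.76). LBD29 passed the filter through root arrays of 12 h or earlier alone, so its higher signal then is in part what admitted it. At 24 h LBD29 was lower, with 34.7 and 21.6, by -1.94 ± 0.62 (adjusted p = 0.0242), the 136th lowest difference. Without replicate 2 of 0.5 h, the brighter of that pair, it was -1.27 (adjusted p = 0.228), and without replicate 1 or 2 of 24 h the adjusted p was 0.0563 and 0.139. At 24 h, 1 of the 6 genes was thus called higher (GH3.1) and 1 lower (LBD29), against 8.02% and 6.52% of all probe sets.

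Results of roots at 12 h rested on which array was read. Replicate 1 was above replicate 2 for all 6 genes, by 1.83-fold for LBD16 up to 7.40-fold for GH3.3. With both arrays, GH3.1 was higher than at 0.5 h (2.60 ± 0.57) and LBD29 lower (-1.86 ± 0.62), against 6.84% and 6.71% of all probe sets. With array weights neither call passed in limma, GH3.1 having an adjusted p of 0.0584 and LBD29 of 0.301. With each tissue fitted alone LBD29 did not pass either (adjusted p = 0.0909). GH3.1 was higher by 1.42 without replicate 1 and by 3.77 without replicate 2. LBD29 was called without replicate 1, while without replicate 2 its difference was -0.87 (adjusted p = 0.286), and without replicate 2 of 0.5 h it was -1.20 (adjusted p = 0.271). GH3.3 turned, at -1.37 (adjusted p = 0.0363) without replicate 1 and 1.51 (adjusted p = 0.0132) without replicate 2. The 6 shoot markers had summed signals of 303 and 455 in these 2 arrays, beside 352 and 453.5 at 0.5 h.

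The summed shoot markers in roots were 193 and 238 at 3 h, then 212 and 222 after 6 h and 803 and 614 after 24 h. They were thus lowest at the times when the 5 risers were high and highest at 24 h, and their part in these results was not tested. The 5 risers were all brighter in roots than in shoots at 3 h except IAA29, whose root and shoot signals there overlapped.

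**Figure D2:**
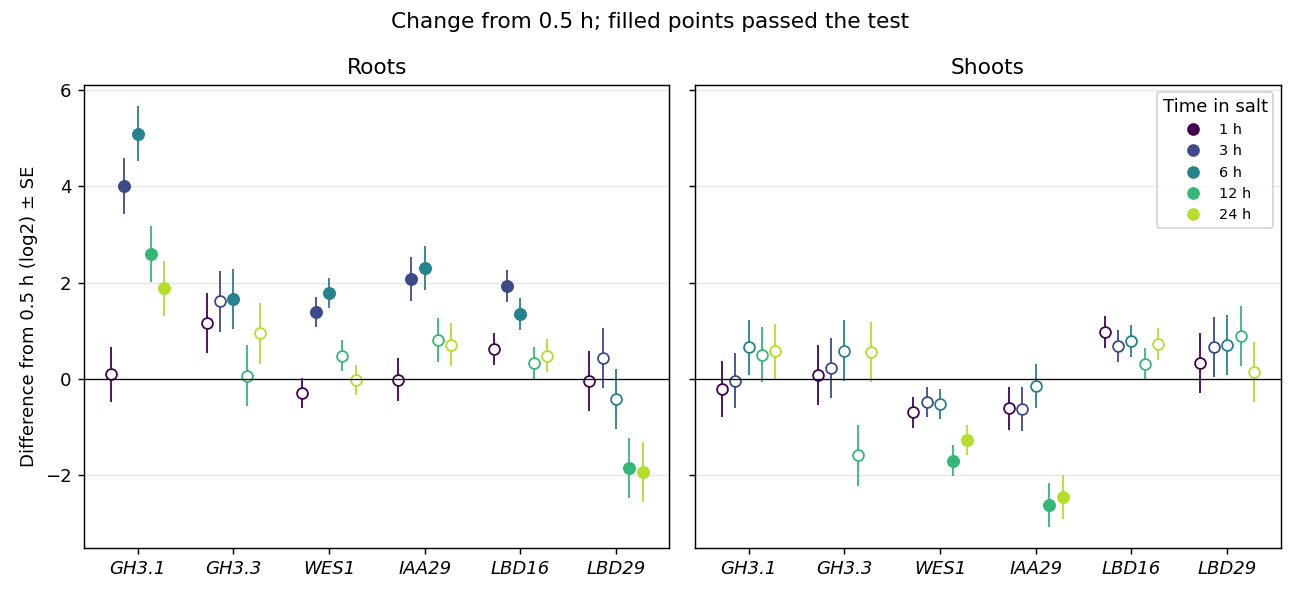
Difference from 0.5 h (log2, y axis) with its SE for each gene at 5 later times (colours), in roots (left) and shoots (right); filled points had an adjusted p under 0.05 and at least a 2-fold change. GH3.1 reaches 5.10 in roots at 6 h, and the filled points in shoots are WES1 and IAA29 at 12 and 24 h, all below 0.

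In shoots the same question gave calls in 1 direction only among these genes. The F test over all times passed for IAA29 and WES1, 2 of the 6, against 49.5% of all probe sets. At 1, 3 and 6 h none of the 6 passed in limma. The share of all probe sets called higher at these times was 0.467%, 5.50% and 7.82%, and the share called lower was 1.74%, 5.08% and 5.73%. Among the members, LBD16 at 1 h (unadjusted p = 0.0103), WES1 at 1 h (0.0415) and LBD16 at 6 h (0.0316) had an unadjusted p under 0.05. At 12 h, 2 of the 6 fell (IAA29 and WES1), against 6.50% of all probe sets, and the same 2 were lower at 24 h, against 6.96%. None rose at either time, against 7.54% and 7.47%.

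IAA29 in shoots read 70.3 and 56.1 at 0.5 h, then 69.9 and 22.9 after 1 h, 38.6 and 41.2 after 3 h, and 35.1 and 90.7 after 6 h. The replicates of 1 h and 6 h were far apart, 3.06-fold and 2.59-fold, and none of these times passed. At 12 h the signals were 7.56 and 9.31 and at 24 h 9.81 and 9.50, below every earlier shoot array. The differences from 0.5 h were -2.62 ± 0.45 (adjusted p = 3.37e-04) and -2.45 ± 0.45 (adjusted p = 6.37e-04), the 191st and 170th lowest. From 6 h to 24 h IAA29 fell by 2.31 on the log2 scale (adjusted p = 0.00200), 1 of the 6 genes to do so in shoots against 4.80% of all probe sets, and none rose, against 3.16%. Without replicate 2 of 6 h, the brighter of that pair, the adjusted p was 0.0511.

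WES1 in shoots read 121 and 116 at 0.5 h, then 85.7 and 60.5 after 1 h, 82.7 and 85.0 after 3 h, and 82.0 and 81.9 after 6 h. All later arrays lay below those of 0.5 h. The gene was lower by less than the limit for a call up to 6 h, with -0.52 ± 0.31 at 6 h, and then fell to 50.4 and 23.9 at 12 h (-1.70 ± 0.31, adjusted p = 6.00e-04) and 46.0 and 49.6 at 24 h (-1.27 ± 0.31, adjusted p = 0.00562). With 1 h as the reference the value at 24 h was -0.57 and did not pass (adjusted p = 0.194). The summed root markers in shoots were 606 and 425 at 0.5 h, then 527 and 1049 after 3 h, 408 and 657 after 6 h, 228 and 462 after 12 h and 209 and 262 after 24 h, and their part in this fall was not tested.

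GH3.3 in shoots read 44.3 and 35.3 at 0.5 h. The lowest pair of the course was that of 12 h, 9.63 and 14.1. The difference of -1.59 ± 0.63 did not pass (adjusted p = 0.0657), and it passed without both root arrays of 12 h (adjusted p = 0.00286), whose spread enters the shared error. At 24 h GH3.3 read 70.7 and 49.6, above both arrays of 0.5 h, with a difference of 0.56 ± 0.63. In shoots at 3 h GH3.3 read 27.9 and 76.9 where the summed root markers were 527 and 1049, and at 6 h it read 44.3 and 82.7 where they were 408 and 657. At 12 h they were 228 and 462 and at 24 h, when GH3.3 was high, 209 and 262. The part of root RNA in these values was not tested. LBD16 in shoots had its lowest mean at 0.5 h, with 13.0 and 11.9, against 28.4 and 24.9 after 1 h and 18.9 and 25.6 after 24 h. The pair of 12 h, 11.0 and 22.8, overlapped that of 0.5 h. Its differences ran from 0.31 at 12 h to 0.97 at 1 h, none of which passed, with a 95% interval at 24 h of 0.01 to 1.43. GH3.1 and LBD29 stayed at 6.36 or below on every shoot array, where a change cannot be read.

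Whether the tissues differed in their change was tested directly, as the root change minus the shoot change. At 3 h and at 6 h, 3 of the 6 genes (GH3.1, WES1 and IAA29) had the higher change in roots, against 8.89% and 11.4% of all probe sets, and none the lower, against 9.66% and 18.5%. At 12 h, WES1 and IAA29 were called higher, against 8.67%, and LBD29 lower, against 11.8%. At 24 h, WES1 and IAA29 were called higher, against 9.00%, and none lower, against 8.40%. At 1 h no gene passed in limma, none with an unadjusted p under 0.05, against 1.24% higher and 0.204% lower.

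IAA29 and WES1 were both called at 3, 6, 12 and 24 h. The root change of IAA29 exceeded its shoot change by 2.71 ± 0.64 at 3 h (adjusted p = 0.00628), 2.46 ± 0.64 at 6 h (0.00644), 3.43 ± 0.64 at 12 h (0.00114) and 3.169 ± 0.64 at 24 h (0.00250). At the first 2 of these times the roots had risen and the shoots had not passed. At the last 2 the shoots had fallen, while the root values of 0.81 ± 0.45 at 12 h and 0.71 ± 0.45 at 24 h had not passed. The level itself was ordered differently at the ends of the course. At 0.5 h IAA29 was lower in roots than in shoots by -2.48 ± 0.45 (adjusted p = 1.52e-04), where 17.5% of all probe sets were called lower, and at 24 h the difference was 0.69 ± 0.45, with both root arrays (19.6 and 14.5) above both shoot arrays (9.81 and 9.50), a difference that did not pass.

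GH3.1 differed between the tissues by 4.05 ± 0.81 at 3 h (adjusted p = 0.00222) and 4.44 ± 0.81 at 6 h (adjusted p = 5.69e-04), while the value at 12 h did not pass (95% interval 0.38 to 3.82, adjusted p = 0.0606). The shoot signals subtracted for GH3.1 were at 6.36 or below, too dim to show a change, so these sizes depend on the pseudocount. Root arrays of 3 h and later alone admitted GH3.1 to the test. Over the alternatives the value at 3 h ran from 3.27 to 4.56 and that at 6 h from 3.93 to 4.95. WES1 differed by 1.88 ± 0.45 at 3 h, 2.30 ± 0.45 at 6 h, 2.18 ± 0.45 at 12 h and 1.25 ± 0.45 at 24 h. The last of these was at the edge (adjusted p = 0.0482) and was lost in 22 of its 36 alternatives. LBD16, called in roots and not in shoots, was not shown to differ between them, with 1.25 ± 0.47 at 3 h (adjusted p = 0.0599, and from 0.0128 to 0.202 over 36 alternatives, of which 11 passed) and 0.56 ± 0.47 at 6 h (95% interval -0.44 to 1.56). Nor was GH3.3, which passed at 3 h only without root arrays of 12 h (1.38, adjusted p = 0.0487 without both) and whose value at 6 h was 1.07 ± 0.89 (95% interval -0.82 to 2.95). LBD29 at 12 h (-2.76 ± 0.88, adjusted p = 0.0272) rests on the 2 root arrays of that time and on shoot signals too dim to read, and leaving out the second of those root arrays ended the call (adjusted p = 0.0893), which was lost in 8 of its 35 alternatives.

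**Figure D3:**
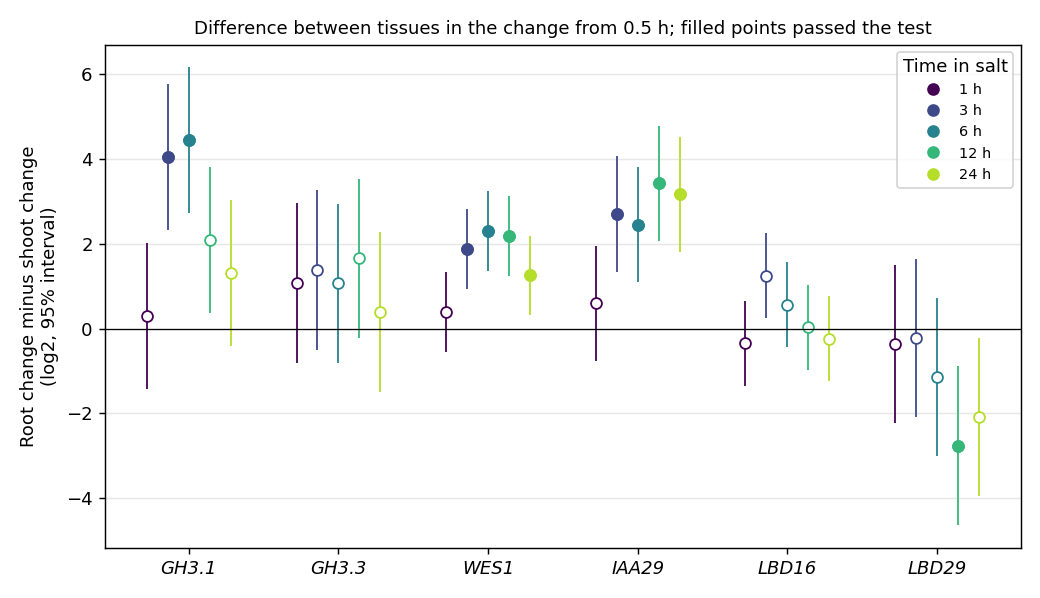
Root change minus shoot change from 0.5 h (log2, y axis) for each gene at 5 times (colours), with 95% intervals; filled points had an adjusted p under 0.05 and at least a 2-fold difference. The filled points are IAA29 and WES1 at 3, 6, 12 and 24 h and GH3.1 at 3 and 6 h, all above 0, and LBD29 at 12 h, below 0. The intervals of GH3.1 at 12 h, LBD16 at 3 h and LBD29 at 24 h also leave out 0, with open points.

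The rest of the auxin pathway could be followed in part. Of 92 other genes of auxin conjugation, breakdown, repression, response, perception, transport, synthesis and lateral root formation, 13 had a probe set of 1 gene and 6 passed the filter. These were the Aux/IAA genes IAA30 and IAA18, the conjugating enzyme gene GH3.17, the lateral root regulator PUCHI, the synthesis gene YUC2 and AT1G14130, which the gene table lists by its locus code. No receptor, ARF or transport gene was among them. In roots, 3 of the 6 rose at 3 h (IAA30, IAA18 and AT1G14130) and 1 at 6, 12 and 24 h (IAA30), and none fell at these times. The shares of all probe sets called higher were, as above, 8.20%, 11.0%, 6.84% and 8.02%, and 1 of 6 is not far from the last 3. In shoots none passed in limma at 1, 3, 6 or 24 h, and GH3.17 and IAA30 fell at 12 h, 2 of the 6 against 6.50% of all probe sets. At the other times 1.74%, 5.08%, 5.73% and 6.96% of all probe sets were called lower. The median difference of the 6 in roots was 0.86 at 3 h and 0.00 at 24 h.

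IAA30, a repressor-family gene, came close to GH3.1 in its course. In roots it read 44.2 and 44.8 at 0.5 h, then 28.1 and 48.1 after 1 h, 419 and 567 after 3 h, and 882 and 566 after 6 h. It then read 161 and 96.2 after 12 h and 96.4 and 133 after 24 h. From 3 h on, every array was above the 4 of 0.5 and 1 h, by 3.39 ± 0.34 at 3 h (adjusted p = 9.28e-06) and 3.92 ± 0.34 at 6 h (adjusted p = 1.06e-06). It was still higher at 24 h by 1.31 ± 0.34 (adjusted p = 0.00732), which no longer passed when replicate 2 of 24 h was left out (adjusted p = 0.0686). In shoots it stayed between 7.12 and 27.7, and its root change exceeded its shoot change by 3.79 ± 0.48 at 3 h and 2.22 ± 0.48 at 24 h (adjusted p = 0.00366). These shoot signals were all below the median of all values, so the sizes depend on the pseudocount. In shoots at 24 h IAA30 differed from 0.5 h by -0.91 ± 0.34, under 2-fold. Its fall in shoots at 12 h was -1.26 (limma, adjusted p = 0.00916). This fall no longer passed with the pseudocount of 16 (-0.66, adjusted p = 0.0599) or with 1 h as the reference (-0.73, adjusted p = 0.133). Nor did it pass without replicate 2 of 0.5 h (-1.14) or replicate 1 of 12 h (-1.17). The rise of IAA30 in roots at 12 h no longer passed without replicate 1 of that time (1.08) or with array weights (1.44, adjusted p = 0.165).

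IAA18 rose in roots by 1.18 ± 0.14 at 3 h (adjusted p = 3.92e-05), from 138 and 143 to 317 and 324, while in shoots it went from 239 and 283 to 149 and 144 (-0.82 ± 0.14, under 2-fold). The tissue difference of IAA18 at 3 h was 1.99 ± 0.20 (adjusted p = 1.36e-05). With 1 h as the reference its root rise was 0.54, under 2-fold, and its tissue difference at 3 h was 0.9997, just under 2-fold. AT1G14130 rose in roots by 1.06 ± 0.19 at 3 h (adjusted p = 0.00101), a value that was 0.93 and short of 2-fold when replicate 2 of 3 h was left out. It was also short of 2-fold with the pseudocount of 16 (0.94) and with 1 h as the reference (0.59). GH3.17, named after its values were seen, read 402 and 438 in roots at 0.5 h, then 403 and 441 after 3 h and 252 and 280 after 6 h. Both arrays of 6 h lay below those of 0.5 h, a difference of -0.65 ± 0.24 (adjusted p = 0.0340) that was under 2-fold, at the time when GH3.1, GH3.3 and WES1 had their highest root means. Its shoot signals went from 44.2 and 48.3 at 0.5 h to 14.04 and 8.27 at 12 h (-1.89 ± 0.24, adjusted p = 1.90e-05), and were 23.7 and 22.6 at 24 h.

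**Figure D4:**
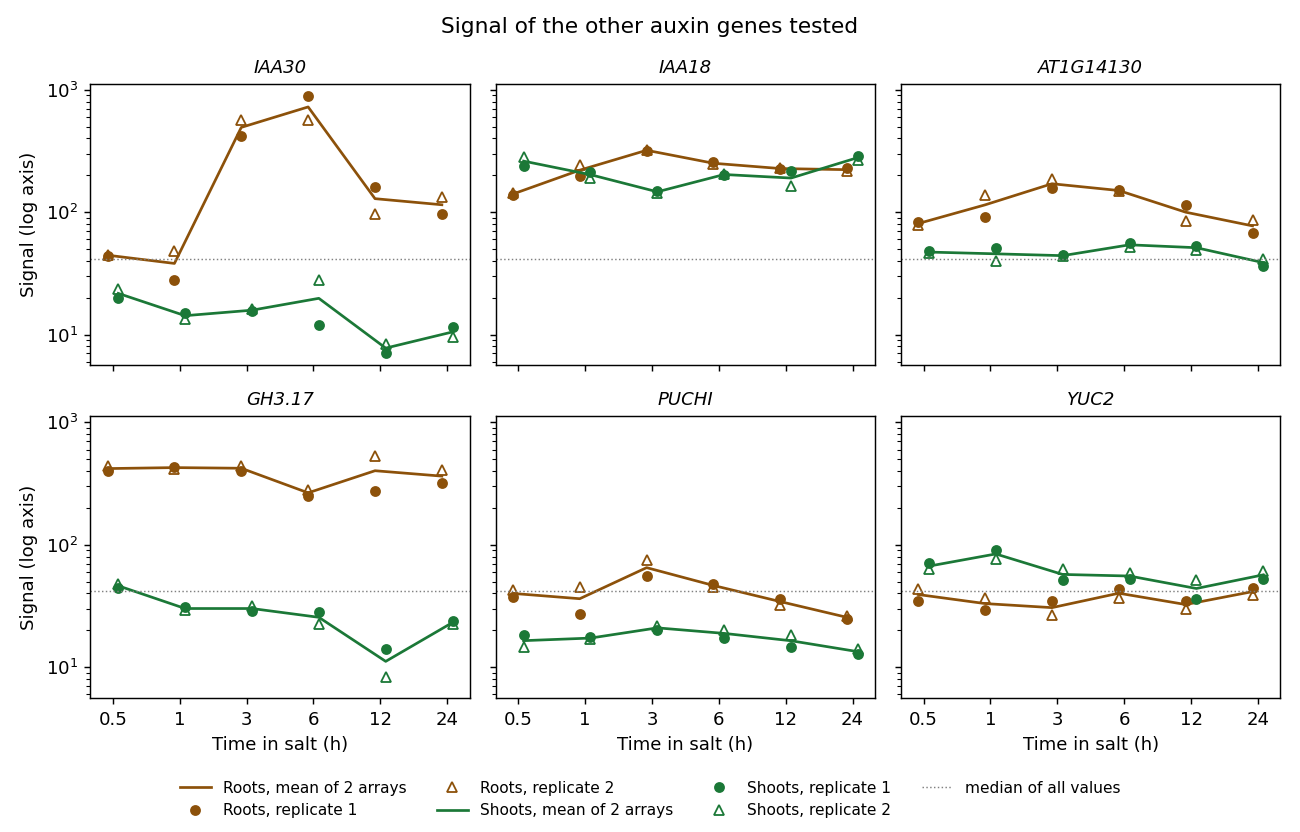
Signal (log axis) of the other 6 auxin genes tested, by time in salt (h, evenly spaced), in roots (brown) and shoots (green); circles are replicate 1, triangles replicate 2, lines join means of 2 arrays and the dotted line is the median of all values. IAA30 in roots climbs from about the dotted line to 882 and 566 at 6 h, and GH3.17 in shoots is lowest at 12 h.

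Genes most like each of the 6 were sought by Pearson r over the 12 group means among 1179 probe sets with a symbol. The group means share the large difference between the tissues, and r is given as a description. GH3.1 was most like ZAP1 (AT2G04880), a WRKY transcription factor, at 0.974, and IAA30 at 0.973. The r takes no account of size. ZAP1 had root means of 170 at 0.5 h, 212 at 3 h and 208 at 6 h, where those of GH3.1 were 15.5, 292 and 622. GH3.3 was most like HMT-1 (AT3G25900), a homocysteine methyltransferase, and UGT73B4 (AT2G15490), a UDP-glycosyltransferase, at 0.980 and 0.979. WES1 was most like PUB22 (AT3G52450), a U-box ubiquitin ligase, at 0.970, and LBD16 most like PUB24 (AT3G11840), of the same family, at 0.969. LBD29 was nearest to SBT4.12 (AT5G59090), a subtilase, at 0.984. IAA29 had no close match, the highest r being 0.792 with MSRB6 (AT4G04840), a methionine sulfoxide reductase.

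Among the 6 themselves, r over 12 group means was 0.791 or more for every pair without IAA29 and between -0.19 and 0.20 for every pair with it. Within the 6 root means, IAA29 lay close to GH3.1 (r = 0.980) and WES1 (r = 0.970), and within the 6 shoot means close to WES1 (r = 0.948). Between LBD29 and GH3.1 r over the root means was -0.02. These values are over 6 times that share their arrays, and they describe the courses without a test.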

How the data were processed

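The values are intensities deposited by the authors, not in log units, 1 per probe set and array. MAS5 made them, per the submitters' processing notes (version not given in the sources used here). Their scaling was kept as deposited. The gene table gave 1 gene for 13513 of the 22810 probe sets, several for 503 and none for 8794, and 13436 were matched to RefSeq genes by identifier. The 64 control probe sets were left out. A pseudocount of 2.205, the 10th percentile of all values left, was added before log2 was taken. A probe set was tested if 2 or more arrays reached 41.7, the median of those values, which kept 15199.

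All 24 arrays entered 1 fit with 12 group means by lmFit and eBayes with a trend (limma 3.58.1, R 4.3.3), with 12 residual degrees of freedom. Tests were two-sided and adjusted by Benjamini-Hochberg over all probe sets tested. Differences were called at an adjusted p under 0.05 if they reached 2-fold. Python 3.11.15 with matplotlib 3.10.9 drew the figures.

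The fit was tested on simulated data with known changes in roots at 3 h against 0.5 h. Of 100 changes of log2 size 1.5 it called 79, and of 100 of size 3 it called 99, with 4 false calls. These counts come from 1 random draw, and an earlier draw called more of size 1.5. Simulated noise had 1 spread per probe set in all groups, which leaves out the wide gap between root arrays of 12 h. The counts are therefore no detection rate for the calls reported here. The members, the auxin and marker lists and the rules were chosen with earlier results of these data known. All members were described; of the auxin list, genes called at 3, 6 or 24 h were named, and the 2 most similar genes were found per member. The fit was repeated with a replicate block, with array weights, with no trend, with each tissue alone, against 1 h, with no fold limit, without each array in turn, and under other pseudocounts, scalings and filters. Leaving out both root arrays of 12 h was added after the data were seen. The labels do not say what replicate numbers share, and groups of 2 arrays were not tested for outlying values.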

Additional observations from a re-analysis of the deposited data

Results flagged for a closer look

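The change from 0.5 h differed between roots and shoots for 4 genes by the interaction test, on the log2 scale as root minus shoot. GH3.1 was 4.05 at 3 h and 4.44 at 6 h, against shoot signals of 6.36 or below that are too dim to show a change, so its sizes depend on the pseudocount. GH3.1 passed the filter only through root arrays of 3 h and later. WES1 was 1.88 at 3 h, 2.30 at 6 h, 2.18 at 12 h and 1.25 at 24 h. IAA29 was 2.71 at 3 h, 2.46 at 6 h, 3.43 at 12 h and 3.169 at 24 h. Its signals were dim in roots at 0.5 h and in shoots at 12 and 24 h, so its sizes depend on the pseudocount too. LBD29 was -2.76 at 12 h, where its 2 root arrays read 59.9 and 13.5 and its shoot signals were as dim.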

How the results depend on the processing

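The 4 rises called in roots at 3 h (GH3.1, WES1, IAA29 and LBD16) passed under every alternative run that could give a value. IAA29 is not tested with the filter at the 75th percentile, which takes it out by construction. With that filter the calls of IAA29 left the counts, and no other member lost a call. Calls in shoots against 0.5 h thus went from 4 to 2, and those at 24 h against 0.5 h from 2 to 1. Calls in shoots at 24 h against 6 h went from 1 to 0, and tissue differences from 11 to 7. With 1 h as the reference, 3 members were called in roots at 6 h, 1 in shoots at 24 h, and 5 in the auxin list over all times in place of 8, which became 20 with no fold limit. With each tissue fitted alone, so that root arrays alone set the spread in roots, 0 members were called in roots at 24 h in place of 2. Why calls were lost against 1 h and with each tissue fitted alone was not tested. GH3.3 in roots at 12 h turned from 0.07 to -1.37 without replicate 1 of that group and went to 1.51 without replicate 2, and the cause was not tested. With each array left out in turn, member calls in roots against 0.5 h ran from 9 to 15 (13 with all arrays), at 3 h from 4 to 5, at 6 h from 4 to 5 and at 24 h from 0 to 2. Those in shoots ran from 4 to 5, and at 24 h stayed at 2. Against 6 h, calls at 24 h ran from 2 to 4 in roots and from 0 to 1 in shoots. Tissue differences ran from 9 to 15, differences in level from 36 to 38 of 42, F tests from 7 to 9 of 12, and auxin list calls from 7 to 8. The replicate block left 13 calls in roots and changed no call of a member; same-numbered arrays correlated in their deviations by -0.26 to 0.23 within roots and -0.06 to 0.13 within shoots. Without both root arrays of 12 h, 5 members were called in roots at 3 h and 5 at 6 h, and LBD29 passed for 24 h against 6 h in roots (-1.51, adjusted p = 0.0304). Dim signals in shoots limit GH3.1 and LBD29, and dim signals in roots at 0.5 h and in shoots at 12 and 24 h limit the sizes of IAA29.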
